A study of Homo sapiens with 16 samples.

Results

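The genes described here are 10 transcripts that report the output of the ERK kinase pathway: the phosphatases DUSP4, DUSP5 and DUSP6, the Sprouty proteins SPRY1, SPRY2 and SPRY4, the SPRED proteins SPRED1 and SPRED2, and the ETS transcription factors ETV4 and ETV5. They were taken by gene symbol from the 28278 symbols counted in each RNA-seq library, and all 10 were found in all 16 libraries and passed the filter on low counts in each comparison. SKMEL28 and A375, the lines studied, are established human melanoma lines that carry an activating BRAF mutation. The groups were SKMEL28 wild type (1 library, numbered replicate 4 in the labels), SKMEL28 with the melanocyte regulator MITF edited (MITFKO, clone D2), 2 clones (3 and 13) of a line with both genes edited (DKO), made by CRISPR-Cas9 editing of the MITF relative TFE3 in that MITFKO line, A375 wild type, and A375 with TFE3 edited (TFE3KO). Each group other than SKMEL28 wild type had 3 libraries. Every DKO library therefore carries the MITF edit as well, while no A375 group does, and how many clones the A375 TFE3KO cells derive from is not given in the sources used here. Replicates were separate flasks of 1 line or clone, so the p-values measure the spread between cultures and not between independently edited clones. The media differed (RPMI for SKMEL28 and DMEM for A375, both with serum), so line and medium cannot be told apart. In all 16 libraries the medium was changed 24 hours before harvest.

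RAF kinases, BRAF among them, phosphorylate the kinase MEK, and MEK activates ERK, which switches on genes that include its own inhibitors. DUSP6 and DUSP4 remove the activating phosphates from ERK in the cytoplasm and the nucleus respectively, Sprouty and SPRED proteins act upstream of ERK at the level of receptors, RAS and RAF, and ETV4 and ETV5 carry ERK signals to target genes. In melanomas with an activated BRAF the transcripts of these genes are widely read as a measure of ERK output, because mutant BRAF escapes much of the feedback. MITF and TFE3 belong to the same family of helix-loop-helix factors, which bind E-box sequences.

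Library totals ran from 17320855 to 31269126 counts, with between 15605 and 17528 genes detected. Levels are given as CPM, counts relative to library size scaled with trimmed-mean (TMM) factors over the 16 libraries, as mean ± SD over 3 libraries where a mean is given. CPM does not correct for transcript length, so levels are compared between groups and not between genes, and in bulk cultures fewer expressing cells and less RNA per cell cannot be told apart. TFE3 itself was at 45.0 CPM in SKMEL28 wild type and 75.4 ± 3.79 in MITFKO, against 9.63 ± 1.85 in DKO clone 3 (12.8% of MITFKO) and 47.0 ± 2.98 in clone 13 (62.3%). In A375 it was at 119 ± 5.67 CPM in wild type and 11.6 ± 0.685 in TFE3KO (9.69%). MITF transcript was at 539 CPM in SKMEL28 wild type and 512 ± 30.8 in MITFKO (log2 change -0.07 ± 0.09 SE, adjusted p = 0.516), 802 ± 29.8 in clone 3 and 894 ± 65.3 in clone 13. In A375 MITF was at 34.7 ± 4.01 CPM in wild type and fell by 0.94 on the log2 scale (SE 0.09, adjusted p = 3.94e-13) to 18.0 ± 0.787 in TFE3KO. An edit that alters a protein need not lower its transcript, so these levels check the MITFKO label not at all and the clone 13 label only in part. The SKMEL28 libraries had 7 or 8 of 9 melanocyte lineage markers at 1 CPM or more, while A375 had 3 of 9, with 2 of them at 0 in each of its groups. The summed level of these markers was 14250 CPM in SKMEL28 wild type, 5290 to 5540 in MITFKO, 5666 to 6469 in clone 3 and 6261 to 7829 in clone 13, and it was 501 to 531 in A375 wild type and 783 to 860 in A375 TFE3KO. Of 6 fibroblast markers the sum was 45.7 CPM in SKMEL28 wild type, 52.1 to 62.3 in MITFKO, 102 to 111 in clone 3 and 76.6 to 89.2 in clone 13, against 4.56 to 8.13 in A375. Summed over 6 leukocyte and endothelium markers, the level was between 172 and 320 CPM in SKMEL28 and between 26.5 and 39.4 in A375. Over 6 keratinocyte markers it was between 20.9 and 80.1 in all libraries. These sums rest on few markers. In each group 2 of the leukocyte and endothelium markers had a mean of 1 CPM or more. So did 2 or 3 of the fibroblast markers and 1 or 2 of the keratinocyte markers. The part of these marker levels in the results below was not tested. Replicate 2 of DKO clone 13 stood apart from its group, with a chi-square per degree of freedom of 21.9 and 23.3 against the other replicates where 13 other replicate pairs had 3.2 to 7.14. Without it, 7 of the 10 genes were lower and 1 higher in clone 13 against MITFKO, 8 were higher in the mean of both clones against wild type and 9 were lower in the difference between the lines, the same counts as with it.

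In SKMEL28 all 10 genes were higher in the MITFKO line than in the lone wild-type library, from 1.14-fold for ETV4 to 5.22-fold for SPRY4. When TFE3 was edited on top of MITF, most of them fell: 8 of 10 in DKO clone 3 and 7 of 10 in clone 13, with SPRY2 the 1 gene that rose in both clones. In A375 TFE3KO cells 8 of 10 rose, led by SPRY4 at 4.77-fold, and DUSP5 fell. Falling in both SKMEL28 clones and rising in A375 were DUSP4, DUSP6, SPRED2, ETV4 and ETV5. The share of all genes with this pattern over both clones was not computed. Taking 1 clone at a time, it was 4.82% (clone 3) and 4.63% (clone 13) of 12979 genes. The TFE3 effect differed between the lines for 9 of the 10 genes, each time lower in SKMEL28. Of 15093 genes tested for this difference, 19.3% were called lower and 18.5% higher.

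These counts were read against all genes tested, a gene being called at a Benjamini-Hochberg adjusted p under 0.05 in edgeR's quasi-likelihood test. The 10 genes were chosen with earlier results of these data known, so an excess over these shares is not independent evidence. In MITFKO against wild type 10 of 10 were called higher, where 25.2% of 14605 genes were called higher and 23.4% lower. With any 1 MITFKO replicate left out, 9 of the 10 were called, ETV4 having lost its call. In DKO clone 3 against MITFKO 8 were lower and 1 higher, where 17.6% of all genes were called lower and 18.2% higher. In clone 13 against MITFKO 7 were lower and 1 higher, against 20.2% lower and 20.5% higher among all genes. In A375 TFE3KO against wild type 8 were higher and 1 lower, against 21.3% of 14012 genes higher and 22% lower. The median log2 change of the 10 genes was 1.03 in MITFKO (all genes 0.01), -0.44 in clone 3 (all genes -0.01), -0.53 in clone 13 (all genes -0.02) and 0.53 in A375 TFE3KO (all genes 0.00). The 3 MITFKO libraries served the comparison with wild type and the comparisons with both clones, so the directions in these comparisons are not independent of each other.

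**Figure D1:**
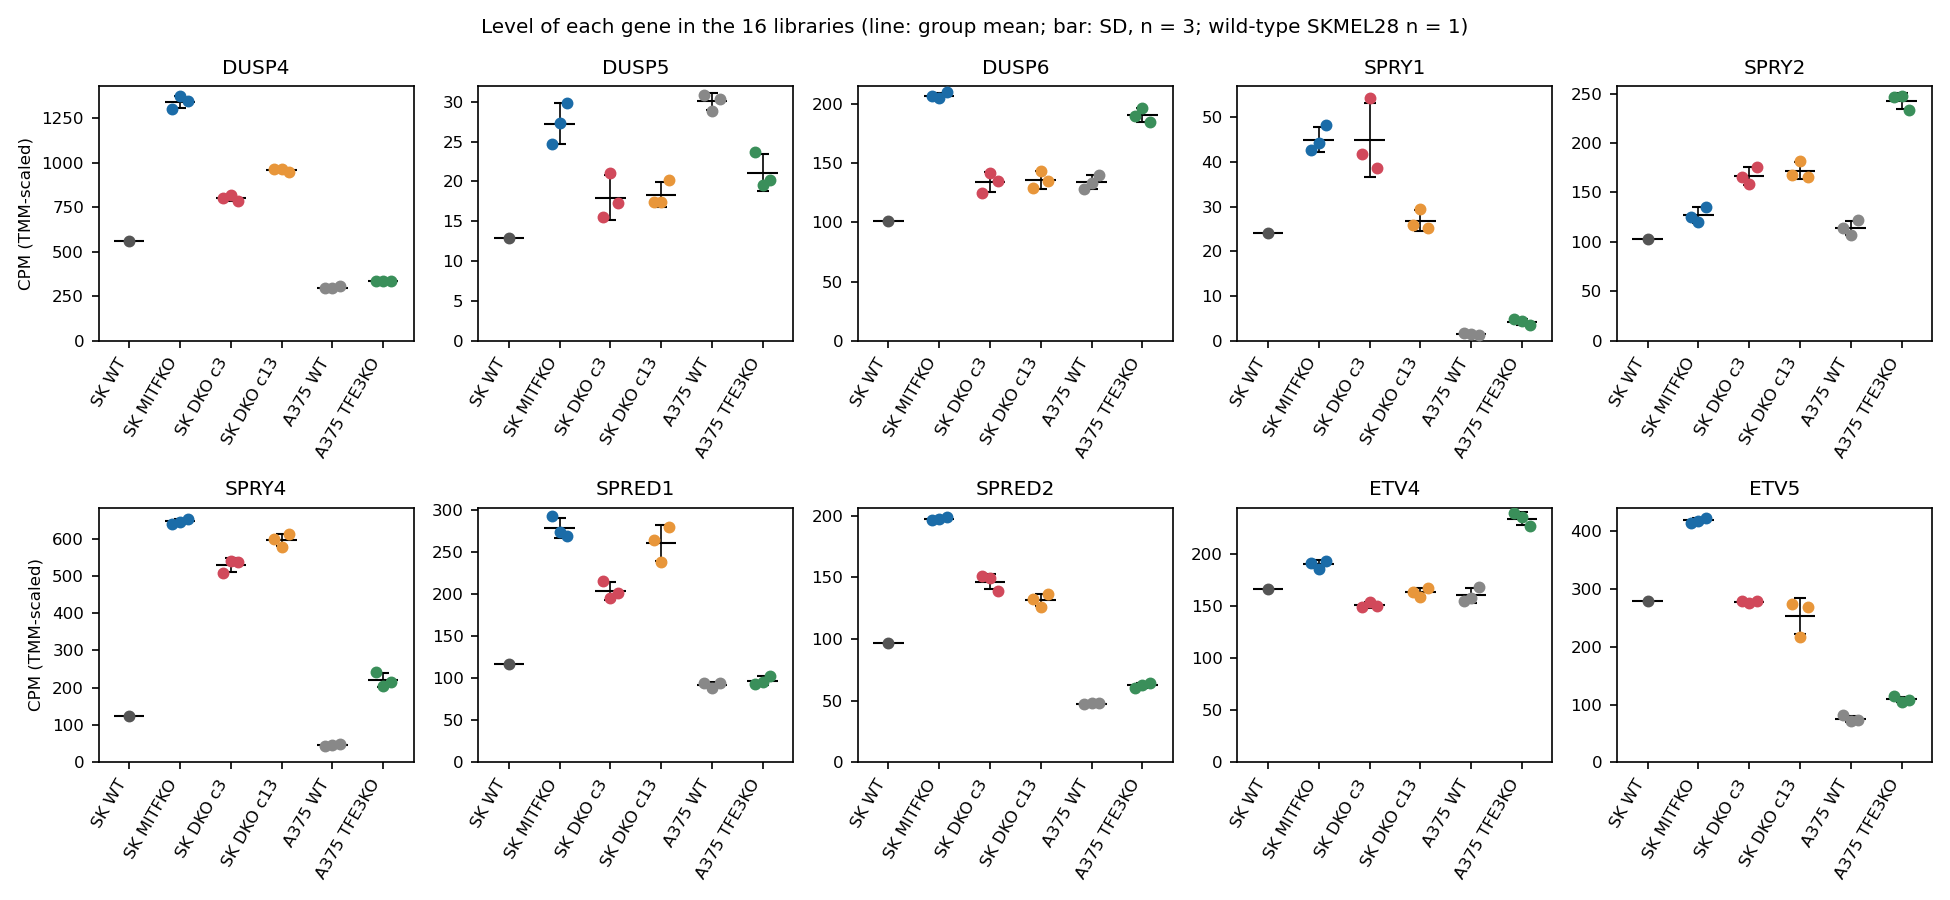
CPM of each of the 10 genes in the 16 libraries (y axes, linear and starting at 0), by group on the x axis; points are libraries, lines group means and bars the SD over 3 libraries. SPRY4 climbs from 124 CPM in SKMEL28 wild type to 640 to 653 in MITFKO, and from 43.4 to 50.04 in A375 wild type to 205 to 241 in TFE3KO, while DUSP4 is lower in both A375 groups than in any SKMEL28 library.

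The phosphatases were examined first. DUSP4, the nuclear ERK phosphatase, was at 559 CPM in SKMEL28 wild type, at 1303, 1372 and 1350 in the MITFKO replicates, at 805, 821 and 786 in clone 3 and at 962, 965 and 951 in clone 13. In A375 it was at 295, 295 and 308 CPM in wild type and 338, 338 and 334 in TFE3KO. No groups overlapped, and the order ran from A375 wild type through A375 TFE3KO, SKMEL28 wild type, clone 3 and clone 13 to MITFKO. DUSP4 rose by 1.26 on the log2 scale in MITFKO (SE 0.08, adjusted p = 8.02e-12) and then fell by 0.74 in clone 3 (SE 0.05, adjusted p = 3.57e-10) and by 0.48 in clone 13 (SE 0.05, adjusted p = 1.08e-07). Its rise in A375 TFE3KO was 1.13-fold, a log2 change of 0.17 ± 0.03 (SE, adjusted p = 2.25e-05), the smallest called change of the 10 genes in that line, but larger than the spread within either group.

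DUSP6, the cytoplasmic ERK phosphatase, was at 101 CPM in SKMEL28 wild type, at 206, 204 and 209 in MITFKO, at 125, 141 and 135 in clone 3 and at 129, 144 and 135 in clone 13. The A375 wild-type replicates had 128, 133 and 140 CPM and the TFE3KO replicates 189, 196 and 185. Both DKO clones and A375 wild type thus shared 1 overlapping range, with SKMEL28 wild type below it and A375 TFE3KO and MITFKO above it. DUSP6 rose 2.05-fold in MITFKO (log2 1.03 ± 0.09 SE, adjusted p = 2.93e-09), fell by 0.63 in clone 3 (SE 0.06, adjusted p = 5.13e-08) and by 0.61 in clone 13 (SE 0.06, adjusted p = 5.45e-08), and rose 1.43-fold in A375 TFE3KO (log2 0.51 ± 0.04 SE, adjusted p = 1.9e-15). A gene annotation on build GRCh38 places an antisense transcript over DUSP6 exons that is not among the counted symbols. The reads were counted on hg19 with an annotation whose release is not given. Whether strand was used in counting is not given in the sources used here, so part of this value could be antisense reads.

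DUSP5, an inducible nuclear ERK phosphatase, was the phosphatase with the fewest counts and the 1 gene of the 10 that fell with TFE3 editing in both lines. It was at 13.0 CPM in SKMEL28 wild type, at 24.7, 27.3 and 29.9 in MITFKO, at 15.5, 21.1 and 17.3 in clone 3 and at 17.5, 17.5 and 20.1 in clone 13. The A375 values were 30.9, 28.9 and 30.3 CPM in wild type and 23.7, 19.5 and 20.2 in TFE3KO. Each TFE3-edited group lay below its own control without overlap, while the 3 TFE3-edited groups overlapped each other as neighbours in the order, and MITFKO overlapped A375 wild type. The rise in MITFKO was 2.10-fold (log2 1.07 ± 0.18 SE, adjusted p = 3.73e-05). The falls were 0.60 in clone 3 (SE 0.12, adjusted p = 0.000534), 0.57 in clone 13 (SE 0.12, adjusted p = 0.000645) and 0.50 in A375 TFE3KO (SE 0.09, adjusted p = 3.64e-06) on the log2 scale.

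Among the Sprouty genes, which encode membrane-associated inhibitors of receptor signalling to ERK, SPRY4 had the largest rises of the 10 in MITFKO and in A375 TFE3KO, and small changes in the DKO clones. Its level was 124 CPM in SKMEL28 wild type, 640, 644 and 653 in MITFKO, 507, 540 and 537 in clone 3, and 600, 578 and 611 in clone 13. In A375 it was at 43.4, 46.1 and 50.04 CPM in wild type and at 241, 205 and 217 in TFE3KO. No neighbouring groups overlapped, and A375 TFE3KO lay above SKMEL28 wild type and below the other SKMEL28 groups. SPRY4 rose 5.22-fold in MITFKO (log2 2.38 ± 0.09 SE, adjusted p = 1.13e-15) and 4.77-fold in A375 TFE3KO (log2 2.25 ± 0.05 SE, adjusted p = 1.16e-28). Against MITFKO it fell by 0.29 in clone 3 (SE 0.05, adjusted p = 0.000138), whereas in clone 13 the change of -0.11 ± 0.05 (SE) missed the threshold (adjusted p = 0.0831; with upper-quartile scaling -0.13, adjusted p = 0.0476). Both clones kept most of the MITFKO level: against wild type their mean was 4.54-fold higher (log2 2.18 ± 0.08 SE, adjusted p = 1.48e-15).

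SPRY2 was the gene whose direction with TFE3 editing was upward in every comparison. It was at 103 CPM in SKMEL28 wild type, at 126, 120 and 136 in MITFKO, at 165, 159 and 176 in clone 3 and at 168, 182 and 166 in clone 13. A375 wild type had 114, 107 and 122 CPM and A375 TFE3KO 247, 247 and 233. The clones overlapped each other and lay above MITFKO, which overlapped A375 wild type. SPRY2 rose by 0.31 in MITFKO (log2, SE 0.09, adjusted p = 0.00678), by 0.39 in clone 3 (SE 0.06, adjusted p = 4.39e-05) and by 0.44 in clone 13 (SE 0.06, adjusted p = 8.33e-06). In A375 TFE3KO it rose 2.13-fold (log2 1.09 ± 0.04 SE, adjusted p = 3.58e-28).

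SPRY1 had the largest fold difference of the 10 genes between the wild-type lines. In SKMEL28 it was at 24.2 CPM in wild type, at 42.6, 44.3 and 48.2 in MITFKO, at 41.7, 54.3 and 38.7 in clone 3 and at 26.0, 29.5 and 25.2 in clone 13. In A375 it was near the limit of reliable counting, at 1.78, 1.53 and 1.35 CPM in wild type (29 to 39 counts) and 4.91, 4.37 and 3.53 in TFE3KO (65 to 160 counts). Clone 3 covered the whole MITFKO range, clone 13 lay just above wild type, and both A375 groups were below every SKMEL28 library. SPRY1 rose by 0.90 in MITFKO (log2, SE 0.16, adjusted p = 8.74e-05) and fell by 0.74 in clone 13 (SE 0.11, adjusted p = 1.5e-05), but in clone 3 the change was -0.00 ± 0.11 (SE, adjusted p = 0.995). The rise in A375 TFE3KO was 2.76-fold (log2 1.47 ± 0.26 SE, adjusted p = 4.76e-06), without overlap between the groups.

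The sequences upstream of 4 of these genes are shown because SPRY4 had the largest rises in MITFKO and A375 TFE3KO, DUSP6 fell in both DKO clones and rose in A375, SPRY2 rose with TFE3 editing in both lines and SPRY1 differed between the clones. Each is the 250 bases before an annotated start, 5′ to 3′ on the gene's strand, from RefSeq on build GRCh38.p14 (the reads were counted on hg19, and no coordinate is carried over). RefSeq entries were at hand for 6 of the 10 genes, with 10 starts. Searched on both strands were the E-box CACGTG and the related CATGTG, which MITF and its relatives bind. The AP-1 site TGACTCA and the cyclic-AMP element TGACGTCA were searched too. Also searched were CCGGAA, a form of the ETS site, and TGAATGAA and TGAATGGA, forms of the site of CIC, a repressor that ERK inactivates. Other forms of the ETS and CIC sites were not searched, so a window without a match may still hold one. Capitals mark a match, and a match on the other strand appears as its reverse complement (CATGTG as CACATG).
SPRY4 at chr5:142324248-142324497, minus strand: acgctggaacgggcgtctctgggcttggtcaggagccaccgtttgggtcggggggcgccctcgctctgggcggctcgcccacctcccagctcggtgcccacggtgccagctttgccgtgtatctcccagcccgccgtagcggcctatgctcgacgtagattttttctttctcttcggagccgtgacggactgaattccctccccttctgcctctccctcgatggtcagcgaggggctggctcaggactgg
DUSP6 at chr12:89352502-89352751, minus strand: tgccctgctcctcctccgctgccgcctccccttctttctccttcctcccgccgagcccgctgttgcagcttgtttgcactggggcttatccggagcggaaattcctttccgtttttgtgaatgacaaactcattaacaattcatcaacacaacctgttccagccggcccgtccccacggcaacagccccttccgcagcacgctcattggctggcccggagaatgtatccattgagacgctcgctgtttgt
SPRY2, the most upstream of its 3 starts, at chr13:80341127-80341376, minus strand: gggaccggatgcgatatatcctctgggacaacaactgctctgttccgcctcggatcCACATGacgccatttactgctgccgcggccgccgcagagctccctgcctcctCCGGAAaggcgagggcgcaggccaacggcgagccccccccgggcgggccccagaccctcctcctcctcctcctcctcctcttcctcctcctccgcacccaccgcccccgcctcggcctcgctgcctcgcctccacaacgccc
SPRY1, the first of its 2 starts, at chr4:123396545-123396794, plus strand: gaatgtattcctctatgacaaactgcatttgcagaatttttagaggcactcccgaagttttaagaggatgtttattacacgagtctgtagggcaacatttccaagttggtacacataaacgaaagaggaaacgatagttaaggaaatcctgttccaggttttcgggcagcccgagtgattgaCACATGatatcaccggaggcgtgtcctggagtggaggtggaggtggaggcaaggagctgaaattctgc
None of the 7 motifs was in the SPRY4 or DUSP6 window. SPRY2 held CATGTG beginning 194 bases before the start and CCGGAA 142 bases before it, and SPRY1 held CATGTG 68 bases before its first start, with a CCGGAA 67 bases before its other start. Over the 35116 starts of all genes the share of windows with a match was 6.34% for CACGTG, 9.42% for CATGTG, 4.2% for TGACTCA, 1.65% for TGACGTCA, 14.5% for CCGGAA, 1.4% for TGAATGAA and 0.832% for TGAATGGA. The E-box CACGTG, the AP-1 site, the cyclic-AMP element and both searched forms of the CIC site were in 0 of the 10 windows. These letters describe the windows only and say nothing of which factors bind there.

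The SPRED proteins bring the RAS inhibitor neurofibromin to the membrane. SPRED1 was at 117 CPM in SKMEL28 wild type, at 293, 274 and 270 in MITFKO, at 216, 195 and 201 in clone 3 and at 265, 238 and 280 in clone 13. A375 had 93.9, 88.7 and 94.8 CPM in wild type and 93.7, 95.4 and 103 in TFE3KO. Clone 13 overlapped MITFKO, clone 3 lay below both, and the A375 groups overlapped each other. SPRED1 rose 2.39-fold in MITFKO (log2 1.26 ± 0.10 SE, adjusted p = 3.82e-10) and fell by 0.45 in clone 3 (SE 0.06, adjusted p = 8.91e-06). The changes of -0.10 ± 0.06 in clone 13 (SE, adjusted p = 0.238) and 0.07 ± 0.05 in A375 TFE3KO (SE, adjusted p = 0.239) missed the threshold.

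SPRED2 was at 96.5 CPM in SKMEL28 wild type, 197, 197 and 199 in MITFKO, 151, 149 and 139 in clone 3, and 132, 126 and 136 in clone 13. Its A375 values were 47.1, 47.8 and 48.1 CPM in wild type and 59.9, 62.6 and 64.6 in TFE3KO. No groups overlapped, and all A375 libraries were below all SKMEL28 libraries. SPRED2 rose by 1.04 in MITFKO (log2, SE 0.08, adjusted p = 9.69e-10), fell by 0.43 in clone 3 (SE 0.06, adjusted p = 3.38e-06) and by 0.59 in clone 13 (SE 0.06, adjusted p = 3.24e-08), and rose by 0.39 in A375 TFE3KO (SE 0.06, adjusted p = 4.16e-07).

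Of the ETS factors, ETV5 was at 279 CPM in SKMEL28 wild type, at 415, 418 and 423 in MITFKO, at 279, 275 and 279 in clone 3 and at 273, 216 and 269 in clone 13. In A375 it was at 81.5, 71.0 and 73.1 CPM in wild type and 114, 105 and 108 in TFE3KO. Clone 3 sat at the wild-type value, and the low library of clone 13 was replicate 2. ETV5 rose by 0.59 in MITFKO (log2, SE 0.10, adjusted p = 3.49e-05), fell by 0.59 in clone 3 (SE 0.07, adjusted p = 6.44e-07) and by 0.73 in clone 13 (SE 0.07, adjusted p = 2.29e-08; -0.62 without replicate 2), and rose by 0.54 in A375 TFE3KO (SE 0.05, adjusted p = 1.24e-12).

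ETV4 had the smallest rise in MITFKO. It was at 166 CPM in wild type, at 192, 186 and 193 in MITFKO, at 149, 154 and 150 in clone 3 and at 164, 159 and 168 in clone 13. The A375 values were 155, 158 and 169 CPM in wild type and 239, 236 and 227 in TFE3KO. Clone 13 overlapped both A375 wild type and the SKMEL28 wild-type library, and A375 TFE3KO was above all other libraries. The MITFKO rise of 1.14-fold (log2 0.19 ± 0.08 SE, adjusted p = 0.0389) was lost without any 1 of MITFKO replicates 1, 2 and 3 (adjusted p = 0.0762, 0.0601 and 0.076), with upper-quartile scaling (0.0878) and without the filter on low counts (0.0948). ETV4 fell by 0.33 in clone 3 (SE 0.05, adjusted p = 4.63e-05) and by 0.22 in clone 13 (SE 0.05, adjusted p = 0.00236), and rose by 0.55 in A375 TFE3KO (SE 0.04, adjusted p = 1.87e-17).

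In the same GRCh38 annotation, exons of ETV5 overlap exons of DGKG on the same strand, and exons of ETV4 overlap those of DHX8 on the opposite strand. How shared reads were assigned is not given in the sources used here, so both values are uncertain to that extent. DGKG was at 21.6 CPM on average in MITFKO and at 24.0 and 19.1 in clones 3 and 13, and its log2 changes there were 0.16 ± 0.10 (SE, adjusted p = 0.265) and -0.18 ± 0.11 (SE, adjusted p = 0.184). In A375 DGKG fell by 0.87 (SE 0.09, adjusted p = 2.69e-12), opposite to the rise of ETV5. DHX8 was at 94.8 CPM in MITFKO and rose by 0.13 in A375 TFE3KO (SE 0.04, adjusted p = 0.0129), where ETV4 rose by 0.55.

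**Figure D2:**
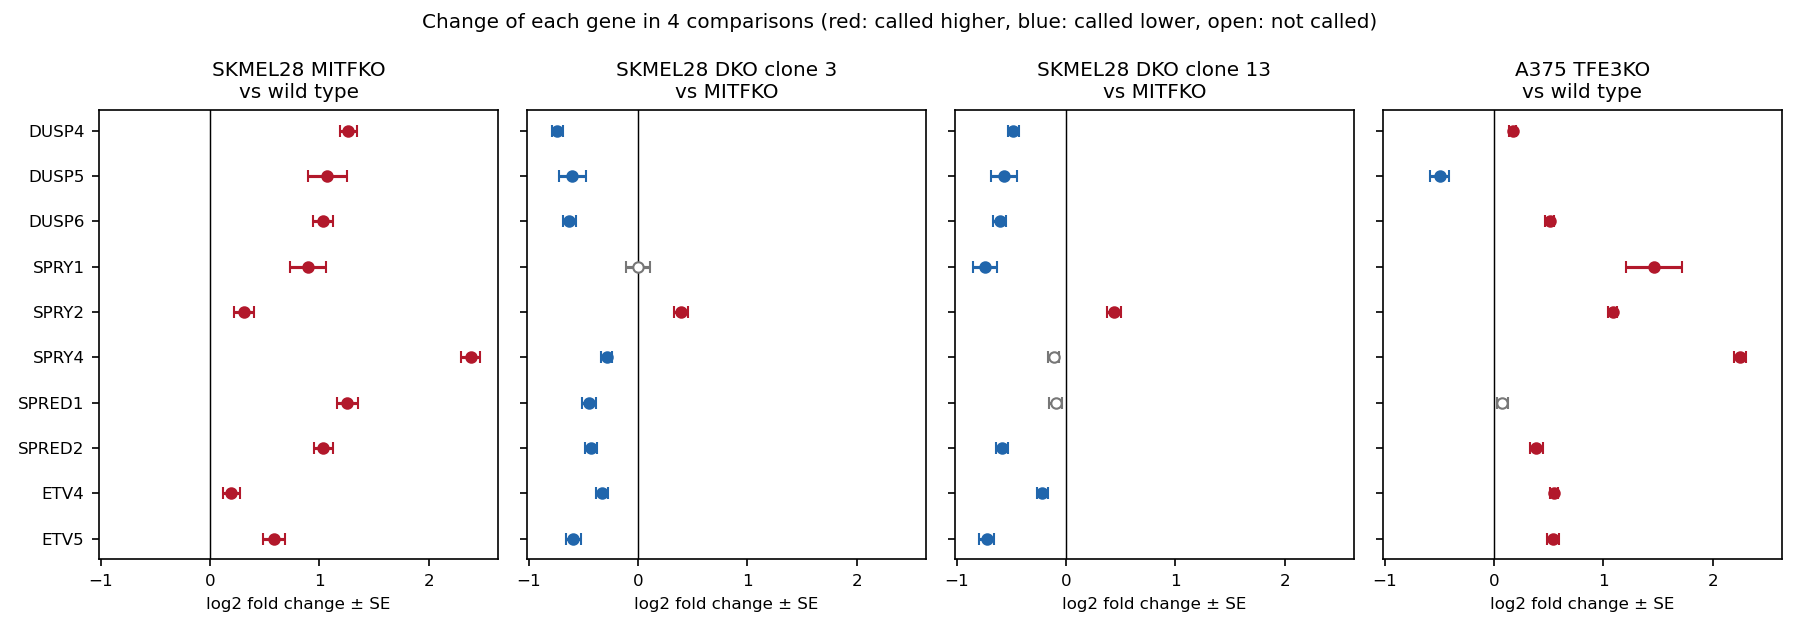
Log2 fold change (x axis) of each gene (rows) in 4 comparisons, with bars of 1 SE; red points were called higher, blue points lower and open points were not called at an adjusted p under 0.05. All 10 points are right of 0 in MITFKO, 8 and 7 blue points are left of 0 in DKO clones 3 and 13, and 8 red points are right of 0 in A375 TFE3KO.

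Clones 3 and 13 differed from each other in 5 of the 10 genes. DUSP4 (log2 0.25 ± 0.05 SE, adjusted p = 0.000614), SPRED1 (0.35 ± 0.06 SE, adjusted p = 0.000224) and SPRY4 (0.17 ± 0.05 SE, adjusted p = 0.0145) were higher in clone 13, which also had more TFE3 transcript (log2 2.29 ± 0.11 SE, adjusted p = 2.53e-12), whose part in these differences was not tested. SPRY1 (-0.74 ± 0.11 SE, adjusted p = 3.59e-05) and SPRED2 (-0.15 ± 0.06 SE, adjusted p = 0.0461) were lower in it. Among all genes 14.3% were called higher and 13.4% lower in clone 13, so 3 and 2 of 10 are not far from the background. The differences for DUSP5 (0.03 ± 0.13), DUSP6 (0.02 ± 0.06), SPRY2 (0.04 ± 0.06), ETV4 (0.12 ± 0.05) and ETV5 (-0.14 ± 0.07) were not called (adjusted p from 0.12 to 0.888). Without clone 3 replicate 1 the count was 3, since SPRY4 (adjusted p = 0.0849) and SPRED2 (adjusted p = 0.198) were no longer called. SPRED2 also lost its call without clone 3 replicate 2 (adjusted p = 0.121) and without clone 13 replicates 1, 2 or 3 (0.0985, 0.119 and 0.0533), with DESeq2 (0.0635), without the filter on low counts (0.0873) and in a fit of only these clones (0.0912). With replicate 2 of both clones left out, which was done because clone 13 replicate 2 stood apart, ETV4 was called higher (log2 0.16, adjusted p = 0.0285) and SPRED2 was not called (adjusted p = 0.186).

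The mean of both DKO clones was also set against wild type, the lone library being assumed to vary like the other groups. In this mean, with both factors edited, 8 of the 10 genes were still higher than in wild type and none was called lower. Of all genes, 26.5% were called higher and 26.4% lower. After SPRY4, the largest were SPRED1 (1.98-fold, log2 0.98 ± 0.09 SE, adjusted p = 5.93e-09), SPRY2 (0.73 ± 0.09 SE, adjusted p = 3.51e-07) and DUSP4 (0.65 ± 0.07 SE, adjusted p = 6.21e-08). SPRED2 (0.53), SPRY1 (0.52), DUSP5 (0.49, adjusted p = 0.0193) and DUSP6 (0.42) followed. For SPRY1 the mean joins unlike clones, clone 3 at 44.9 CPM and clone 13 at 26.9 CPM, against 24.2 CPM in wild type. The ETS factors were not called, with log2 differences of -0.08 ± 0.07 for ETV4 (SE, adjusted p = 0.356) and -0.07 ± 0.09 for ETV5 (SE, adjusted p = 0.514).

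Whether the TFE3 effect differed between the lines was tested directly, as the mean change of both clones from MITFKO minus the change in A375. It was lower in SKMEL28 for 9 genes and called higher for none, where 19.3% of 15093 genes were called lower and 18.5% higher. SPRY4 had the largest difference at -2.44 ± 0.07 (log2, SE, adjusted p = 1.45e-19), followed by SPRY1 (-1.84 ± 0.22, adjusted p = 9.96e-08), ETV5 (-1.19 ± 0.09, adjusted p = 2.25e-11) and DUSP6 (-1.12 ± 0.07, adjusted p = 4.71e-13). SPRED2 (-0.89), ETV4 (-0.81), DUSP4 (-0.77) and SPRY2 (-0.66) had adjusted p-values of 7.89e-08 or lower. For SPRY2 the difference lay in size, since it rose in both lines. For SPRED1 the difference was -0.34 ± 0.08 (SE, adjusted p = 0.000965), and with clone 13 alone it was -0.16 (adjusted p = 0.142). DUSP5 fell in both lines, and its difference of -0.07 ± 0.15 (SE, adjusted p = 0.746) was not called. Called lower in clone 3 and higher in A375 TFE3KO were 6 of the 10 genes (DUSP4, DUSP6, SPRY4, SPRED2, ETV4 and ETV5), a pattern of 4.82% of the 12979 genes tested in both lines. With clone 13 the pattern also held 6 genes (SPRY1 in place of SPRY4), against 4.63% of all genes. The edits were made on different backgrounds, MITFKO in SKMEL28 and unedited MITF, at a low level that fell further in TFE3KO, in A375. The line, its medium and the state of MITF cannot be told apart in this difference.

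**Figure D3:**
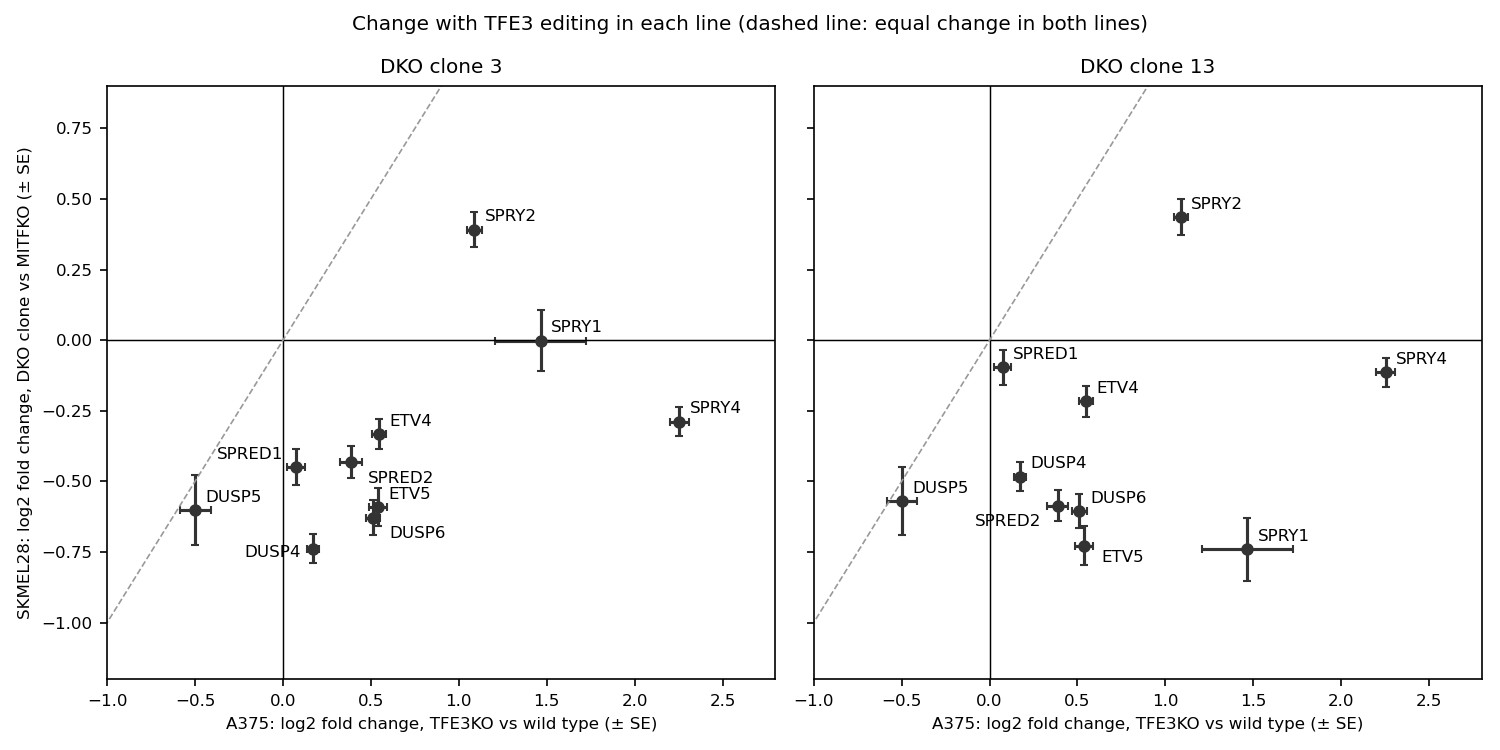
Log2 change with TFE3 editing in A375 (x axis) against the change in SKMEL28 (y axis) for DKO clone 3 (left) and clone 13 (right); bars are 1 SE and the dashed line marks an equal change. DUSP5 lies by the line, SPRY2 is above 0 on both axes, and the other genes sit right of the line, SPRY4 farthest at 2.25 on the A375 axis.

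Before any TFE3 edit the lines already differed in most of the 10 genes, but so they did in most of all genes tested. The median absolute log2 difference was 0.96 for the 10 genes and 0.93 for all genes. In A375 wild type against the lone SKMEL28 wild-type library 2 were called higher and 6 lower, where 34.1% of 16248 genes were called higher and 33.6% lower, so the higher calls were below and the lower calls above the background share. SPRY1 was 15.5-fold lower (log2 -3.95 ± 0.19 SE, adjusted p = 1.25e-17), ETV5 3.71-fold lower (-1.89 ± 0.09 SE, adjusted p = 1.93e-17) and SPRY4 2.66-fold lower (-1.41 ± 0.08 SE, adjusted p = 1.8e-16). SPRED2 (-1.02), DUSP4 (-0.90) and SPRED1 (-0.34) were also lower, while DUSP5 (1.21 ± 0.17 SE, adjusted p = 2.05e-07) and DUSP6 (0.40 ± 0.08 SE, adjusted p = 5.07e-05) were higher. ETV4 (-0.05 ± 0.07 SE, adjusted p = 0.526) and SPRY2 (0.16 ± 0.08 SE, adjusted p = 0.101) were not called, although SPRY2 was called with DESeq2 (0.20, adjusted p = 0.0428) and without A375 wild-type replicate 2 (0.20, adjusted p = 0.0456).

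Other genes of the pathway were described from 4 lists, whose differences from the 10 genes and from all genes were not tested. Over all genes tested, 25.2% were called higher and 23.4% lower in MITFKO, 18.2% and 17.6% in clone 3, 20.5% and 20.2% in clone 13, 21.3% and 22% in A375 TFE3KO, and 18.5% and 19.3% in the difference between the lines. Of 21 tested genes known as ERK output besides the 10, 14 were called higher and 2 lower in MITFKO, 2 higher and 10 lower in clone 3, 4 higher and 9 lower in clone 13, and 5 higher and 10 lower in A375 TFE3KO. The higher calls in clone 13 and in A375 were near the share of all genes. LIF, a cytokine, rose 29.1-fold (log2 4.87 ± 0.15 SE, adjusted p = 3.93e-14) and the potassium channel KCNN4 17.9-fold in MITFKO, while the receptor EPHA4 fell by 2.04 and the AP-1 subunit FOS by 1.82. MAFF, a small MAF factor, fell by 1.14 in clone 3 and 1.18 in clone 13, EGR3 fell by 1.08 in clone 3 and TRIB1 by 0.65 in clone 13, and the chemokine CXCL8 rose by 0.73 in clone 3 and 0.64 in clone 13 (0.42 without clone 13 replicate 2). In A375 TFE3KO the immediate-early factors EGR3 (log2 1.68 ± 0.11 SE, adjusted p = 8.3e-19) and EGR1 (1.02 ± 0.12 SE, adjusted p = 1.17e-09) rose, whereas CXCL8 (-2.72) and the chromatin protein HMGA2 (-1.72) fell. The TFE3 effect was lower in SKMEL28 than in A375 for 8 of these 21 genes, such as EGR3 (-2.52) and EGR1 (-1.41). It was higher for 5, such as CXCL8 (3.41) and HMGA2 (1.33), a count near the share of all genes. Without clone 13 replicate 2, 11 were lower and 5 higher in this difference, and 12 were lower and 4 higher in clone 13 against MITFKO. Calls over all genes also moved without it. In the difference they went from 2907 lower and 2786 higher to 3121 lower and 3159 higher. In clone 13 against MITFKO they went from 2957 lower and 2994 higher to 2910 lower and 3168 higher.

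Close relatives of the 10 genes formed the next list. Of 9 tested (DUSP8 and SPRY3 were too low), 4 were higher and none lower in MITFKO, among them ETV1 (log2 1.20) and DUSP2 (1.02). In clone 3 there were 1 higher and 2 lower, in clone 13 there were 3 higher and 2 lower (4 and 1 without its replicate 2), and DUSP1, a phosphatase of several MAP kinases, rose in both (0.59 and 0.49). In A375 TFE3KO 3 were higher and 2 lower, with DUSP16 up by 0.39 and DUSP7, another cytoplasmic ERK phosphatase, down (-0.41 ± 0.05 SE, adjusted p = 8.19e-09). The counts in clone 3 and in A375 were near the shares of all genes. Of 22 genes of the cascade from receptor and RAS to ERK and its kinases, 15 were higher and 3 lower in MITFKO, 4 higher and 8 lower in clone 3, 4 higher and 11 lower in clone 13, and 6 higher and 8 lower in A375 TFE3KO, the higher calls in both clones and in A375 being near the shares of all genes. The ERK1 gene MAPK3 rose by 0.66 (SE 0.07, adjusted p = 7.75e-12) and the receptor EGFR fell by 1.59 (SE 0.07, adjusted p = 1.3e-25) in A375 TFE3KO. RPS6KA2, a kinase downstream of ERK, fell by 1.67 in clone 3 and 0.87 in clone 13 and rose by 0.66 in A375 TFE3KO, so its TFE3 effect differed by -1.92 (SE 0.19, adjusted p = 2.74e-09). Of 11 transcription factors and repressors that act on ERK target genes, 6 were higher and 2 lower in MITFKO, none higher and 2 lower in clone 3, 3 each way in clone 13, and 2 higher and 4 lower in A375 TFE3KO, where the shares of all genes again lay near most counts in the clones and A375. CIC rose by 0.37 (SE 0.10, adjusted p = 0.00891) in clone 13, a value that was 0.22 without replicate 2 (adjusted p = 0.00301), and its partner ATXN1 rose by 1.71 in MITFKO and 0.37 in A375 TFE3KO and fell by 0.26 in clone 3.

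**Figure D4:**
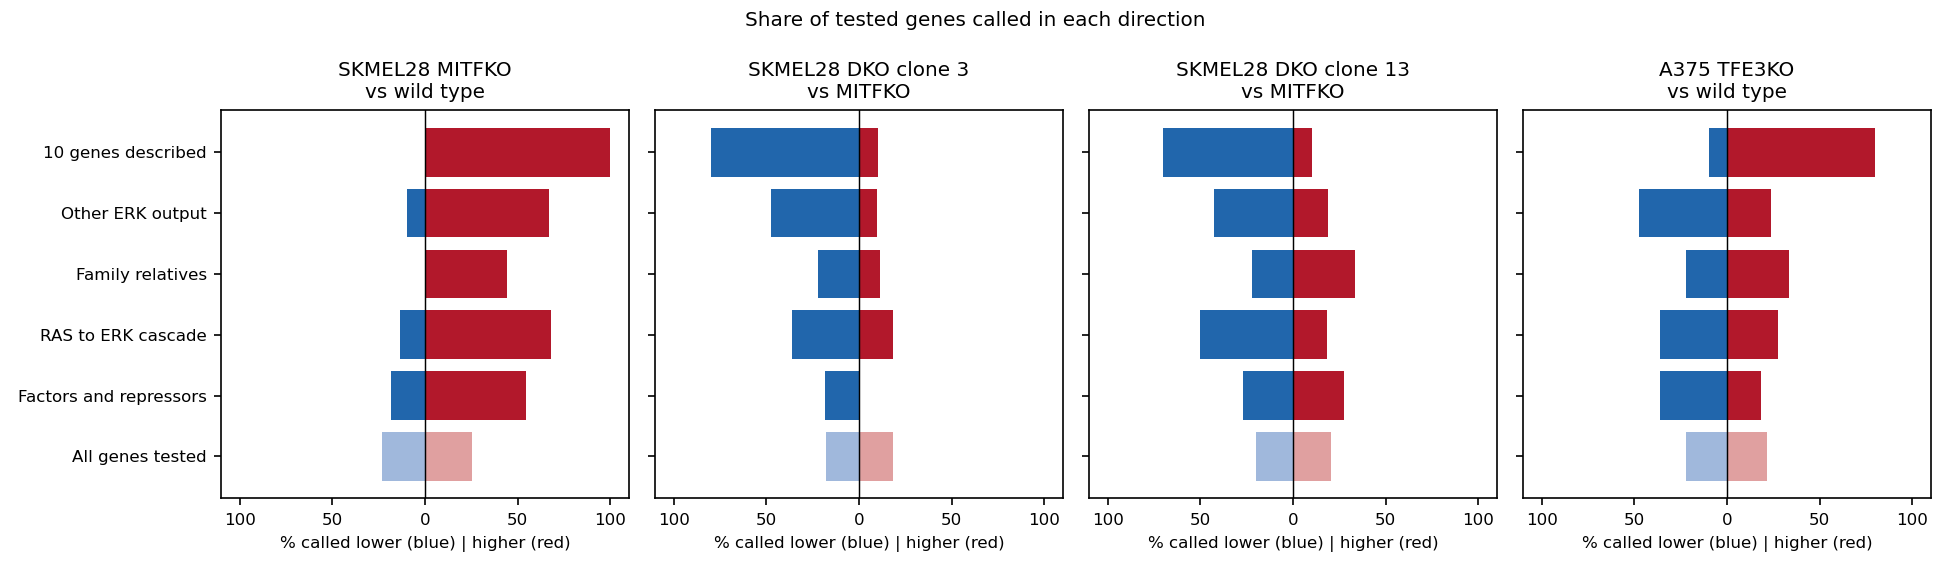
Percent of the tested genes of each list called lower (blue, leftward) and higher (red, rightward) in 4 comparisons, with all genes tested in paler bars at the bottom. The 10 genes reach 100% higher in MITFKO against 25.2% of all genes, and in A375 TFE3KO 80% of them are higher where 23.8% of the other ERK output genes are, a difference that was not tested.

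Across the 6 group means, likeness of pattern was measured as the root-mean-square difference of log2 CPM after centring each gene on its own mean, over 10823 genes. The 10 genes did not share 1 pattern: DUSP4 and SPRED2 were nearest to each other (0.16), as were DUSP6 and ETV4 (0.25), while SPRY1 (0.88 to ETV5) and SPRY4 (0.82 to DUSP4) had no near neighbour among them. The closest of all genes were LRRK1 (0.09) and ZBTB21 (0.10) to DUSP4, SPEG (0.08) and ANKRD13D (0.12) to DUSP5, and ANKRD34A (0.09) and AARS1 (0.10) to DUSP6. For the Sprouty genes they were BHLHE40 (0.20) and HEY1 (0.27) to SPRY1, SLC25A45 (0.15) and ERCC1 (0.17) to SPRY2, and KLF9 (0.18) and ZNF536 (0.21) to SPRY4. OTUD1 (0.10) and ADAMTSL5 (0.10) were closest to SPRED1, MEX3C (0.09) and SLC36A1 (0.11) to SPRED2, DENND1B (0.05) and ZFPM1 (0.08) to ETV4, and WIPF1 (0.12) and PPP1R3D (0.13) to ETV5.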

How the data were processed

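RNA-seq was run on total RNA from cultured cells, per the labels' protocols. The authors deposited raw read counts per gene symbol, 1 file per library, and the submitters' processing notes name STAR, featureCounts, DESeq2 and hg19, without versions. Annotation release, strand setting and the handling of multiply mapped reads: not given in the sources used here. No pooling or normalization had been applied to the counts.

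From these counts, edgeR 4.0.16 in R 4.3.3 removed low genes (filterByExpr by group, minimum count 10), applied TMM scaling and ran the robust quasi-likelihood F-test, with Benjamini-Hochberg adjustment over all genes tested and a threshold of 0.05. SKMEL28 comparisons came from 1 model of 10 libraries, A375 from 1 model of 6 and differences between lines from joint models. The fitted log2 changes used a prior count of 0.125. Each SE of a log2 change was derived from the test, as the absolute log2 change divided by the square root of its F statistic. The 10 genes and the other gene lists were chosen with earlier results of these data known. All 10 were named in every comparison, and of each other list at most the 2 largest called rises and 2 largest called falls with a mean CPM of 5 or more in the higher group. Likeness used log2 of CPM plus 0.5 over genes with a mean CPM of 5 or more. No libraries were duplicates: chi-square per degree of freedom between replicates was 3.2 to 7.14 in 13 pairs and 21.9 to 23.3 in the pairs with DKO clone 13 replicate 2. Alternatives were DESeq2 1.42.0, upper-quartile scaling, other filters, fits of only the groups compared, a replicate block and leaving out each replicate. The scripts were tested on simulated data.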

Additional observations from a re-analysis of the deposited data

Results flagged for a closer look

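For 9 of the 10 genes the effect of editing TFE3 differed between SKMEL28 (mean of both DKO clones against MITFKO) and A375 (TFE3KO against wild type) in the joint edgeR test. Among all 15093 genes tested, 19.3% were called lower and 18.5% higher. On the log2 scale the difference, SKMEL28 minus A375, was -0.77 for DUSP4, -1.12 for DUSP6, -1.84 for SPRY1, -0.66 for SPRY2, -2.44 for SPRY4, -0.34 for SPRED1, -0.89 for SPRED2, -0.81 for ETV4 and -1.19 for ETV5. The adjusted p-values ran from 1.45e-19 (SPRY4) to 0.000965 (SPRED1). With clone 13 alone in place of the mean, the SPRED1 difference was -0.16 and was not called (adjusted p = 0.142). DUSP4, DUSP6, SPRED2, ETV4 and ETV5 fell in both SKMEL28 clones and rose in A375, whereas SPRY2 rose in both lines. The share of all genes that fell in both clones and rose in A375 was not computed. With clone 3 alone it was 4.82% and with clone 13 alone 4.63% of 12979 genes.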

How the results depend on the processing

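The count of genes called stayed within 1.5 times under all 100 alternatives over the 8 comparisons, and the count of the 10 genes called did so under 99 of 100. The exception was clone 13 against clone 3, where leaving out 1 replicate gave 3 to 5 calls. Of 1000 recomputed changes, 970 kept their direction and call, 16 lost the call, 4 gained it and 10 turned sign, none of these called in the main analysis. The sign turned for SPRY1 in clone 3 against MITFKO with DESeq2 (0.00252) and leaving out each replicate (-0.16 to 0.0952). In clone 13 against clone 3 it turned for DUSP5 (-0.057 to 0.163 leaving out each replicate), DUSP6 (-0.0183 to 0.0665) and SPRY2 (-0.0275 without replicate 2 of both clones, an alternative chosen after seeing the data), and in the difference between lines for DUSP5 (-0.145 to 0.0196). The causes were not tested. The replicate numbers were not taken to pair the samples, since in no comparison did every same-numbered pair have r over 0.1 (12 pairs, -0.0401 to 0.166, 1 over 0.1). Between the DKO clones the 3 pairs had r of 0.0698, 0.166 and 0.0444, and 5 of 6 libraries correlated best with their own number, a hint from the data and not the design (7 of 24 over all comparisons). With the replicate number as a block, 5575 genes were called in clone 3, 6221 in clone 13, 4410 between the clones, 5721 in A375 and 5724 between the lines, and 9, 8, 5, 9 and 9 of the 10 genes, the same counts of these genes as without it. No paired analysis was possible because the SKMEL28 wild-type library shares its number with no other, for the comparisons with it. That lone library limits the precision of every comparison with SKMEL28 wild type, and SPRY1 in A375 rests on 29 to 160 counts per library.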
